A study of Mus musculus with 12 samples.

Results

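Genes of corticosteroid signalling, 5 in number, were followed in the RNA of mouse kidney tubuloids: Nr3c1 (glucocorticoid receptor), Nr3c2 (mineralocorticoid receptor), Hsd11b2 (the enzyme that inactivates corticosterone), and the receptor co-chaperone genes Fkbp4 and Ptges3. They were chosen by gene symbol and make up 5 of the 20819 genes in the deposited table. Tubuloids are epithelial structures grown in a gel, here Matrigel, from dissociated renal cortex of 4 wildtype mice, and the labels call their cells renal tubular epithelial cells. There were 3 groups of 4 libraries, all taken after 12 h: myoglobin with 100 nM dexamethasone, a synthetic glucocorticoid, myoglobin without it, and vehicle. Per the design text, myoglobin, the oxygen-binding protein of muscle, was used to injure the tubular cells. All 12 libraries are of wildtype cells in culture, without blood flow or an adrenal gland, and tubuloids treated with dexamethasone but no myoglobin were not analysed here. The labels number the libraries of a group from 1 to 4 without saying that a number is a mouse, so p-values measure only the spread between these samples, which may be technical.

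Both receptors are transcription factors that wait in the cytoplasm in a complex built on the chaperone HSP90, and move to the nucleus once a steroid is bound. Corticosterone, the main glucocorticoid of mice, binds the mineralocorticoid receptor as tightly as aldosterone does, and in aldosterone-responsive cells of the distal nephron the Hsd11b2 enzyme converts it to an inactive form. The product of Fkbp4 is an immunophilin of the HSP90 complex that favours transport of the receptor to the nucleus, its relative Fkbp5 lowers hormone binding and is itself induced by glucocorticoids, and the product of Ptges3 holds HSP90 in its steroid-binding state.

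Values are the deposited normalised read counts, in which each library's reads were scaled by its own size factor and rounded. Per library, genes held an estimated 3.25 to 5.53 M reads in the group with both agents (myoglobin and dexamethasone), 5.28 to 5.92 M in the myoglobin group and 5.51 to 5.87 M in the vehicle group. The library of myoglobin with dexamethasone numbered 4 stood apart, with 3.25 M estimated reads and 2179 genes at 0, against 4.85 to 5.92 M and 1051 to 1544 genes at 0 in the other 11. Tests used limma on log2(value + 1) over the 14558 genes that reached 10 in 4 or more libraries, with Benjamini-Hochberg adjustment over all of them and a threshold of 0.05. The 3 comparisons share libraries and are not independent of each other. All 5 genes entered the fit, Hsd11b2 through the 4 vehicle libraries, since only 1 of the other 8 libraries reached 10. Its tests against vehicle therefore add nothing to its values, also where it is counted among genes that passed.

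**Figure D1:**
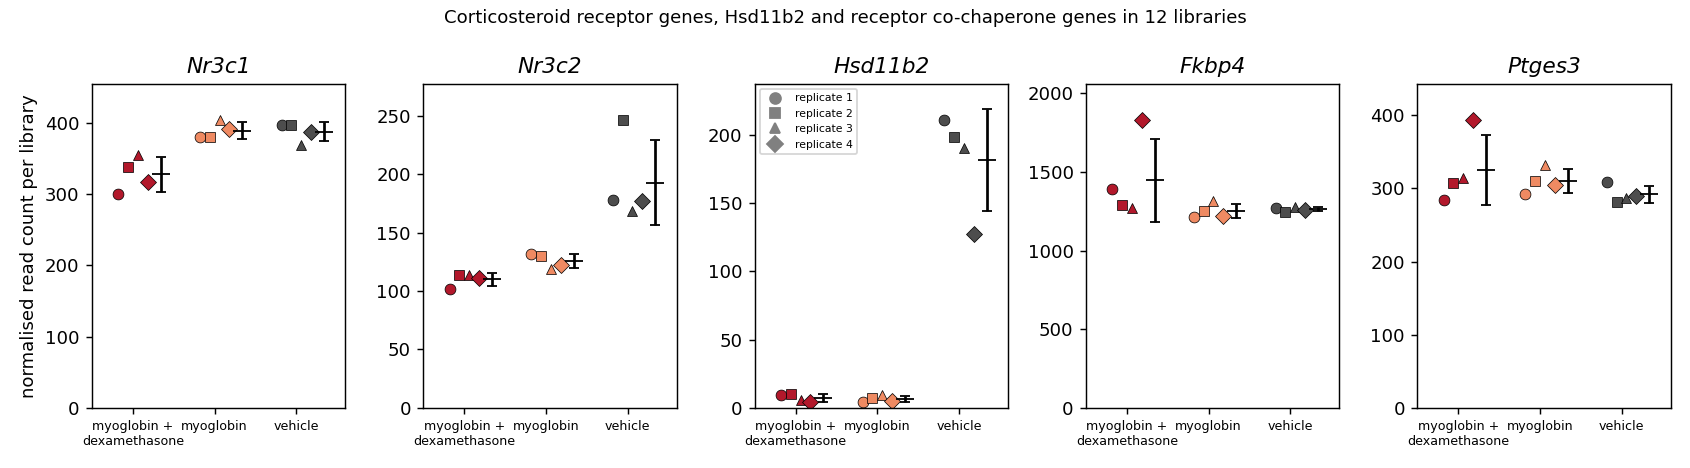
Normalised read count per library (vertical axes, starting at 0) of the 5 genes, with 4 libraries each of myoglobin with dexamethasone, myoglobin, and vehicle; symbols mark the replicate number, and bars give the mean and SD. Hsd11b2 lies at 4 to 10 in the 8 libraries with myoglobin, against 127 to 211 with vehicle, and the highest Fkbp4 and Ptges3 values, 1833 and 394, are both in replicate 4 of myoglobin with dexamethasone.

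With myoglobin and dexamethasone against myoglobin, 1 of the 5 genes passed, Nr3c1, which fell, where 6.98% of all tested genes passed in either direction and 3.9% passed as lower. With myoglobin against vehicle, 2 of the 5 passed, Nr3c2 and Hsd11b2, both lower, where 18.3% of tested genes passed in either direction and 9.62% passed as lower. With myoglobin and dexamethasone against vehicle, 3 of the 5 passed, Nr3c1, Nr3c2 and Hsd11b2, all lower, where 28.6% of tested genes passed in either direction and 14.6% passed as lower. Libraries of the compared groups did not overlap for 2, 2 and 3 of the 5 genes in these comparisons, in the same order, always with the lower values in the group named first. Among all tested genes 6.19%, 12.1% and 13.3% were lower without overlap. Neither co-chaperone gene passed in any comparison. The median log2 change over all tested genes lay at 0.01 or below in each comparison.

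For 3 of the 5 genes the RefSeq promoter table holds a window on GRCm38.p6, from 250 bases before to 50 after a transcription start: Nr3c2 at chr8:76902080-76902379 (plus strand, inside the gene span of the table), Fkbp4 at chr6:128438607-128438906 (minus strand) and Ptges3 at chr10:128058732-128059031 (plus strand). They are shown because 1 of the treatments is a ligand of a DNA-binding receptor, and because Nr3c2 fell where the co-chaperone genes did not pass. Capitals mark matches on either strand to a heat shock pair of inverted repeats (GAANNTTC), a GC box (GGGCGG) or a CCAAT box (CCAAT), in 5′ to 3′ order of the gene.
Nr3c2: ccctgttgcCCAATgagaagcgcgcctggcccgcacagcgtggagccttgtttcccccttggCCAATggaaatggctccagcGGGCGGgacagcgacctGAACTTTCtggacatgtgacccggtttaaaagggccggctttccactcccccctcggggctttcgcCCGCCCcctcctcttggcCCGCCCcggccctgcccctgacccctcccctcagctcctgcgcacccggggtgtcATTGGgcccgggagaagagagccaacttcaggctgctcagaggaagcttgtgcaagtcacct
Fkbp4: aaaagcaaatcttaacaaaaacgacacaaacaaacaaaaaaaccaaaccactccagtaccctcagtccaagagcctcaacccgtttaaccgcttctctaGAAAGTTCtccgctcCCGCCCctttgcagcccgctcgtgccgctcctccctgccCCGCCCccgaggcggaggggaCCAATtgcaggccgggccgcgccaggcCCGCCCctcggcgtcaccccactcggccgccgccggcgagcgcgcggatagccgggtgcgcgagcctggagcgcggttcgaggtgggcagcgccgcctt
Ptges3: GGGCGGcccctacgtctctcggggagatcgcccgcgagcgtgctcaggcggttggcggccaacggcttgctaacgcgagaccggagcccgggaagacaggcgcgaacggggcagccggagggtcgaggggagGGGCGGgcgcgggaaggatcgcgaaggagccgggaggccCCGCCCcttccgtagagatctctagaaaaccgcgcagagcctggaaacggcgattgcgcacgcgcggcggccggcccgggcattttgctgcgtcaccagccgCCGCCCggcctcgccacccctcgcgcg
GAANNTTC stood 1 time in the Nr3c2 window and 1 time in the Fkbp4 window, starting at position -151 from the start in both, and was absent from that of Ptges3, where 7.86% of 32851 windows of this length hold it. The tail-to-tail form TTCNNGAA, held by 8.52% of windows, was in none of the 3. The full palindromic glucocorticoid response element, found in 3 of the 32851 windows, and its core ACANNNTGT, found in 6.85%, had no match in these 3 stretches of 300 bases. GC boxes numbered 3, 3 and 4 in the Nr3c2, Fkbp4 and Ptges3 windows, where 35.7% of windows hold at least 1. CCAAT boxes numbered 3, 1 and 0 in the same order, against 37.4% of windows with at least 1. The matches describe the letters only.

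Nr3c1, the glucocorticoid receptor gene, fell with dexamethasone (ENSMUSG00000024431, chromosome 18, 39410545 to 39519421, minus strand, mm10; 7684 exonic bases). Its normalised read counts were 300, 339, 356 and 317 with myoglobin and dexamethasone, 381, 380, 405 and 392 with myoglobin, and 398, 397, 369 and 388 with vehicle. All 4 libraries with dexamethasone lay below all 8 without it, while the myoglobin and vehicle libraries overlapped. The level was 328 ± 24.6 with both agents, against 389.5 ± 11.7 with myoglobin (SD, n = 4 each), or 84.2% of the myoglobin mean. The log2 change was -0.25 ± 0.054 (SE), with an adjusted p of 0.0108 by limma with Benjamini-Hochberg adjustment. This call did not pass when all libraries of number 1 (adjusted p = 0.0548) or of number 2 (adjusted p = 0.0655) were left out, each with 3 libraries a group, and it passed without any 1 library.

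Against vehicle, Nr3c1 fell by 0.24 ± 0.054 on the log2 scale with myoglobin and dexamethasone (SE, limma adjusted p = 0.00326). With myoglobin alone the change was 0.01 ± 0.054 against vehicle, with a 95% interval of -0.11 to 0.12 (limma adjusted p = 0.959). A change of the size seen with dexamethasone lies outside that interval. In bulk RNA, fewer cells of a type that carries a transcript and less of it per cell cannot be told apart, here and for each gene that follows.

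Nr3c2, the mineralocorticoid receptor gene, fell with myoglobin (ENSMUSG00000031618, chromosome 8, 76899442 to 77245012, plus strand; 6474 exonic bases). Its normalised read counts were 102, 114, 114 and 111 with myoglobin and dexamethasone, 132, 130, 119 and 122 with myoglobin, and 178, 247, 169 and 177 with vehicle. The 3 groups did not overlap: every library with both agents lay below every myoglobin library, and these lay below every vehicle library. The mean was 126 ± 6.24 with myoglobin, against 193 ± 36.4 with vehicle (SD, n = 4 each), 65.2% of the vehicle mean. The log2 change was -0.60 ± 0.10 (SE, limma adjusted p = 0.000717), and it was -0.47 (adjusted p = 0.000899) without vehicle replicate 2, the highest library.

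With both agents Nr3c2 averaged 110 ± 5.68, or 57.2% of the vehicle mean, and fell by 0.78 ± 0.10 on the log2 scale against vehicle (SE, limma adjusted p = 4.84e-05). Set against myoglobin, myoglobin with dexamethasone gave a log2 difference of -0.19 ± 0.10 (SE) with a 95% interval of -0.41 to 0.03 (limma adjusted p = 0.301), and so did not pass although the 2 groups did not overlap. A bidirectional-promoter transcript on the opposite strand, Gm10649, overlaps 247 exonic bases of Nr3c2 and has no values used here. The libraries came from a stranded kit, and whether reads were counted by strand is not given in the sources used here.

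The balance of the receptor transcripts differed between libraries with and without myoglobin. Divided by exonic length, Nr3c1 stood at 42.7 ± 3.20, 50.7 ± 1.52 and 50.5 ± 1.75 normalised reads per kb with myoglobin and dexamethasone, myoglobin, and vehicle (SD, n = 4 each). On the same scale Nr3c2 stood at 17.03 ± 0.877, 19.4 ± 0.964 and 29.8 ± 5.62. Nr3c1 was thus the more abundant per length in each group, and the mean of its per-kb ratio to Nr3c2 was 2.51 with both agents, 2.62 with myoglobin and 1.73 with vehicle.

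The log2 ratio of Nr3c1 to Nr3c2 counts within a library was 1.55, 1.56, 1.63 and 1.51 with both agents, 1.52, 1.54, 1.76 and 1.68 with myoglobin, and 1.16, 0.68, 1.12 and 1.13 with vehicle. All 8 libraries with myoglobin lay above all 4 with vehicle. The difference between myoglobin and vehicle was 0.60 (exact two-sided permutation test, p = 0.0286, the smallest that 4 against 4 can give, adjusted over 6 ratio tests p = 0.0429). Myoglobin with dexamethasone differed from vehicle by 0.54 with the same exact p-values. The adjusted p depends on how many of the 6 tests gave this smallest p, those of Fkbp5 to Fkbp4 among them. It therefore adds nothing to the lack of overlap between the libraries. Between myoglobin with dexamethasone and myoglobin the difference was -0.06 (exact permutation p = 0.4, adjusted p = 0.4), and the libraries overlapped.

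**Figure D2:**
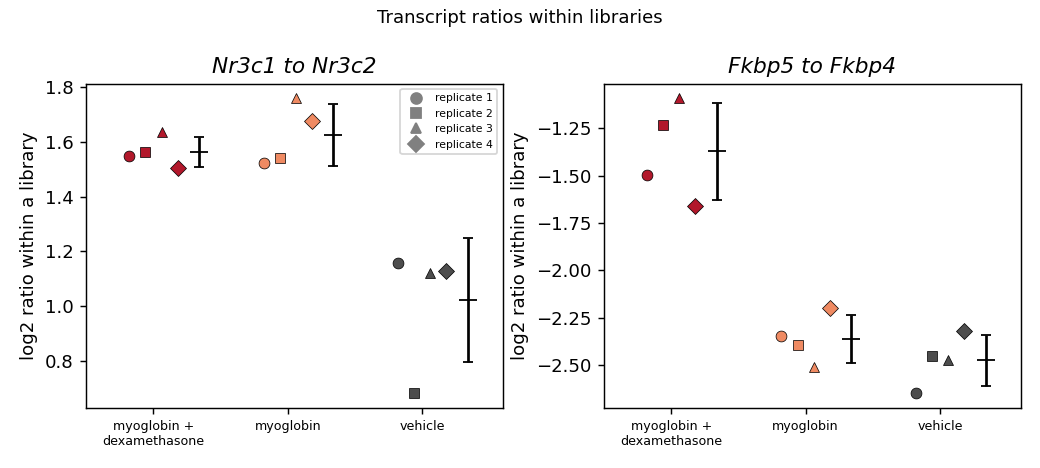
log2 ratio of Nr3c1 to Nr3c2 (left) and of Fkbp5 to Fkbp4 (right) within each library of the 3 groups; symbols mark the replicate number, bars give the mean and SD, and the axes do not start at 0. The left ratio is higher in all 8 libraries with myoglobin than in the 4 vehicle libraries, and the right one is higher in the 4 libraries with dexamethasone than in the 8 others.

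Hsd11b2, the corticosterone-inactivating enzyme gene, fell to a few reads in the libraries with myoglobin (ENSMUSG00000031891, chromosome 8, 105518755 to 105523988, plus strand; 1840 exonic bases). Its normalised read counts were 9, 10, 6 and 4 with myoglobin and dexamethasone, 4, 7, 9 and 5 with myoglobin, and 211, 198, 190 and 127 with vehicle. The groups with myoglobin overlapped each other, and the lowest vehicle library, replicate 4, lay far above every library with myoglobin. In estimated reads these are 2.3 to 9.7 with both agents, 4.45 to 8.90 with myoglobin, and 132 to 234 with vehicle, so the values of both myoglobin groups rest on a handful of reads.

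The mean of Hsd11b2 was 6.25 ± 2.22 with myoglobin, against 181.5 ± 37.3 with vehicle (SD, n = 4 each), or 3.44% of the vehicle mean. The log2 change of -4.68 ± 0.28 (SE, limma adjusted p = 1.17e-08) was the lowest of the 14558 genes tested, and it was -3.55 with a pseudocount of 10. With both agents the mean was 7.25 ± 2.75, or 3.99% of the vehicle mean, and the log2 change of -4.51 ± 0.28 against vehicle (SE, limma adjusted p = 1.81e-08) was again the lowest of all tested genes, at -3.46 with a pseudocount of 10. Hsd11b2 entered the fit only through the vehicle group, where it is high, so these p-values and ranks add nothing to the values themselves. Between myoglobin with dexamethasone and myoglobin the log2 difference was 0.17 ± 0.28, with a 95% interval of -0.43 to 0.77 (limma adjusted p = 0.761), and a difference between them was not detectable at this depth. Per length, Hsd11b2 stood above 6.04% of tested genes of known length with both agents, above 4.74% with myoglobin, and above 70.8% with vehicle, where it had 98.6 ± 20.3 normalised reads per kb (SD, n = 4).

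Most markers of principal cells, the collecting duct cells in which Hsd11b2 is found, fell with myoglobin too. Of 11 principal cell markers, all tested, 0 rose and 7 fell with myoglobin against vehicle, with a list median log2 change of -0.76. Over all tested genes 18.3% passed in either direction in this comparison and 9.62% passed as lower. Counted among the 7 is Aqp2, which like Hsd11b2 entered the fit only through the vehicle group, where it is high. Its tests against vehicle therefore add nothing to its values. The epithelial sodium channel subunit genes Scnn1b and Scnn1g fell by 0.76 ± 0.053 and 0.99 ± 0.084, and the potassium channel gene Kcnj1 by 1.08 ± 0.11 on the log2 scale (SE; limma adjusted p = 7.15e-08, 5.11e-07 and 6.26e-06). The summed level of the 11 markers was 4745 to 5027 with myoglobin and dexamethasone, 4046 to 4428 with myoglobin, and 4931 to 5676 with vehicle, and none of the 11 was at 0 throughout a group. Against vehicle, 1 rose and 8 fell with both agents, where 28.6% of all tested genes passed in either direction and 14.6% passed as lower. Aqp2 is again among the 8. So is Aqp3, a call lost without replicate 2, 3 or 4 of myoglobin with dexamethasone. The Aqp3 call was also lost without myoglobin replicate 2 or 4, or without vehicle replicate 2, 3 or 4. Against myoglobin, 1 rose with both agents, the transcription factor gene Tfcp2l1 (log2 change 0.34 ± 0.058, SE, limma adjusted p = 0.00219), and 0 fell, where 2 passed at an unadjusted p under 0.05. Over all tested genes 6.98% passed in either direction in that comparison. The part of a smaller share of these cells in the Hsd11b2 and Nr3c2 results was not tested.

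Other distal segments, several of which also use Nr3c2, gave a mixed picture with myoglobin against vehicle. Over all tested genes 18.3% passed in either direction in this comparison and 9.62% passed as lower. Of 6 tested intercalated cell markers 1 rose and 4 fell, the falls including the transcription factor gene Foxi1 (-2.51 ± 0.26, SE) and the ammonia transporter gene Rhcg (-2.79 ± 0.28), with limma adjusted p of 4.02e-06 and 4.31e-06. The 1 that rose was Slc26a4. Its log2 change was 1.05 (limma adjusted p = 0.000958) with replicate 4 of myoglobin with dexamethasone left out of the shared fit. Of 5 distal convoluted tubule markers 1 rose and 3 fell, with the thiazide-sensitive transporter gene Slc12a3 at -1.18 ± 0.17 (SE, limma adjusted p = 0.000112). The 1 that rose was Calb1, at 0.31 (limma adjusted p = 0.00025) with the same library left out. The Calb1 call was lost when all libraries of number 2 or of number 3 were left out. Of 4 tested thick limb markers 0 rose and 2 fell. The intercalated cell markers summed to 692 to 792, 604 to 734 and 645 to 839 with both agents, myoglobin, and vehicle. The distal convoluted tubule markers summed to 3567 to 3823, 2821 to 3238 and 3321 to 4003 in the same groups, and the thick limb markers to 560 to 649, 549 to 642 and 718 to 864. Of 13 proximal tubule markers 5 were tested, and 1 rose and 0 fell with myoglobin against vehicle, the 1 being the endocytic receptor gene Lrp2 (0.73 ± 0.10, SE, limma adjusted p = 9.17e-05). Without myoglobin replicate 2, 1 rose and 1 fell. Their sums were 1074 to 1297 with both agents, 1240 to 1316 with myoglobin, and 1003 to 1167 with vehicle.

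Markers of cells other than tubular epithelium were also measured with myoglobin against vehicle, where 18.3% of all tested genes passed in either direction and 9.62% passed as lower. Of 3 tested immune markers 0 rose and 1 fell, the leukocyte surface gene Ptprc (-0.38 ± 0.063, SE, limma adjusted p = 0.000408). Of 5 tested fibroblast markers 0 rose and 1 fell, Pdgfra (-0.76 ± 0.22, limma adjusted p = 0.0259), a call lost without myoglobin replicate 2, 3 or 4 or vehicle replicate 1, 2 or 3, at adjusted p of 0.0539 to 0.0877. By limma 0 of 5 podocyte markers passed, where 1 passed unadjusted and 2 fell without vehicle replicate 1. The 1 endothelial marker tested did not pass, passed unadjusted, and fell without myoglobin replicate 4. Immune markers summed to 461 to 556 with both agents, 401 to 496 with myoglobin and 471 to 604 with vehicle, and podocyte markers to 612 to 723, 569 to 799 and 666 to 991 in the same order. Fibroblast markers summed to 59 to 82, 78 to 143 and 84 to 151, and endothelial markers to 27 to 46, 29 to 59 and 55 to 60. Their part in the results for the 5 genes was not tested.

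**Figure D3:**
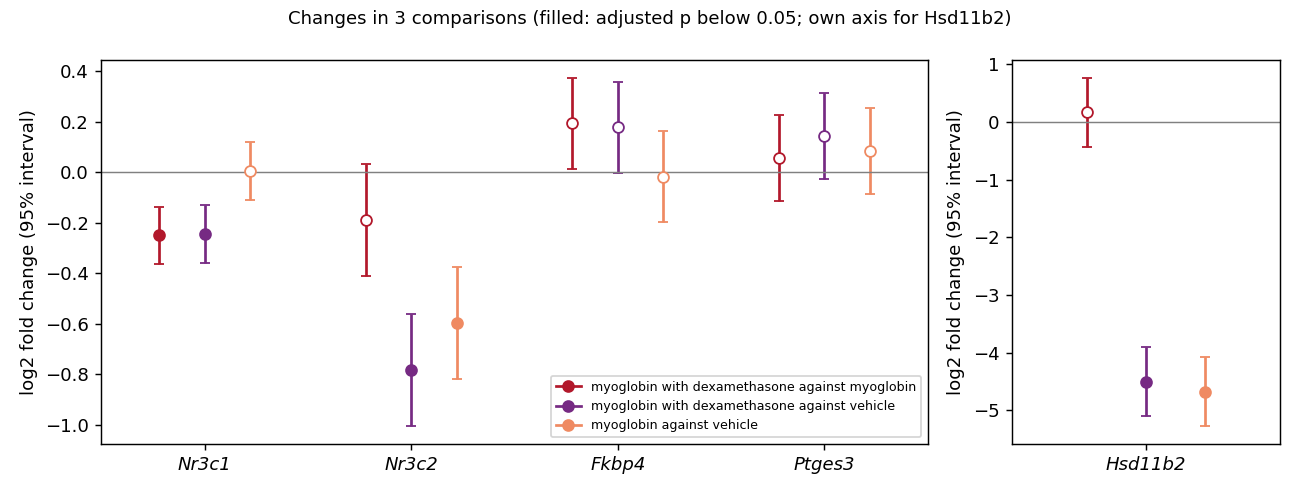
log2 fold change with its 95% interval for the 5 genes in the 3 comparisons, filled where the limma adjusted p is below 0.05; Hsd11b2 has an axis of its own. Nr3c1 is filled in both comparisons that involve dexamethasone, Nr3c2 and Hsd11b2 in both comparisons with vehicle, and Fkbp4 and Ptges3 in none.

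Of the companion enzyme genes of corticosteroid metabolism, H6pd rose with myoglobin against vehicle, while Hsd11b1 had lower values there, at few reads. Hsd11b1, which regenerates active corticosterone, averaged 6.5 with myoglobin and dexamethasone, 6.25 with myoglobin and 14.25 with vehicle. Like Hsd11b2 it entered the fit only through the vehicle libraries, at 10 to 25, while the other 8 lay at 4 to 9. Its tests against vehicle therefore add nothing to these values. It fell with myoglobin by 1.05 ± 0.34 on the log2 scale (SE, limma adjusted p = 0.0419), a call that was lost without myoglobin replicate 3 (adjusted p = 0.122), myoglobin replicate 4 (adjusted p = 0.121) or replicate 3 of myoglobin with dexamethasone (adjusted p = 0.0535), and also with no filter on low values and under quantile normalization. Its fall with both agents against vehicle (-0.94 ± 0.34, adjusted p = 0.0488) was lost without any 1 of the 4 libraries of that group or without myoglobin replicate 2, at adjusted p of 0.0527 to 0.106, and with no filter, a pseudocount of 0.1, quantile normalization or only the 2 groups fitted. H6pd, whose product supplies the cofactor for the Hsd11b1 reaction, averaged 1913, 1630 and 1216 in the same order of groups. It rose with myoglobin by 0.42 ± 0.058 against vehicle (SE, limma adjusted p = 8.16e-05) and with both agents by 0.65 ± 0.058 (limma adjusted p = 8.41e-07). Against myoglobin, both agents gave 0.23 ± 0.058 (limma adjusted p = 0.0278), a call lost without any 1 of the 4 myoglobin libraries, at adjusted p of 0.0618 to 0.0733.

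Of the 12 genes of corticosteroid metabolism and transport, 9 were in the table and 6 were tested. Over all tested genes 18.3% passed in either direction with myoglobin against vehicle. The share was 6.98% with both agents against myoglobin and 28.6% with both agents against vehicle. Hsd11b1 is counted among the falls from vehicle, although its tests add nothing to its values. With myoglobin against vehicle 2 rose and 1 fell, the 2 being H6pd and the steroid reductase family gene Srd5a3, whose log2 change of 0.23 ± 0.076 (SE, limma adjusted p = 0.0422) was lost without any 1 of the myoglobin libraries, without vehicle replicate 2, 3 or 4, or without replicate 3 of myoglobin with dexamethasone. Both agents gave 1 rise and 0 falls against myoglobin, and 1 rise and 2 falls against vehicle, the 2 being Hsd11b1 and the steroid reductase gene Srd5a1 (-0.43 ± 0.13, adjusted p = 0.0231). The Srd5a1 call was lost without replicate 1 of myoglobin with dexamethasone or without vehicle replicate 2, 3 or 4. The drug efflux pump genes Abcb1a and Abcb1b passed in no comparison, with 95% intervals as wide as -0.86 to 0.75 for Abcb1b with both agents against vehicle.

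Fkbp4, the gene of the receptor-transporting immunophilin, did not pass in any comparison (ENSMUSG00000030357, chromosome 6, 128429735 to 128438677, minus strand; 2795 exonic bases). Its normalised read counts were 1393, 1290, 1269 and 1833 with myoglobin and dexamethasone, 1216, 1250, 1314 and 1220 with myoglobin, and 1272, 1246, 1279 and 1258 with vehicle. Apart from the value of 1833 in replicate 4 of myoglobin with dexamethasone, all libraries lay between 1216 and 1393, and the groups overlapped. It averaged 1446 ± 263 with both agents, 1250 ± 45.3 with myoglobin and 1264 ± 14.7 with vehicle (SD, n = 4 each). The log2 difference between both agents and myoglobin was 0.19 ± 0.085 (SE), with a 95% interval of 0.01 to 0.38 and a limma adjusted p of 0.194. Between both agents and vehicle it was 0.18 ± 0.085, with an interval of -0.0030 to 0.36 (limma adjusted p = 0.129), and between myoglobin and vehicle -0.02 ± 0.085, with an interval of -0.20 to 0.16 (limma adjusted p = 0.923). At 447 to 517 normalised reads per kb in the group means, Fkbp4 was above at least 99.7% of tested genes of known length. Genes of its read density were higher in the library with the fewest estimated reads, by a median of 0.45 on the log2 scale over 121 genes. Whether values at such a read density keep pace with abundance was not tested.

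Ptges3, the HSP90-stabilising co-chaperone gene, also passed in no comparison (ENSMUSG00000071072, chromosome 10, 128058954 to 128077272, plus strand; 2217 exonic bases). Its normalised read counts were 284, 308, 314 and 394 with myoglobin and dexamethasone, 293, 310, 332 and 305 with myoglobin, and 309, 282, 287 and 290 with vehicle. The groups overlapped, and the highest library was again replicate 4 of myoglobin with dexamethasone. The log2 difference was 0.06 ± 0.080 (SE) between both agents and myoglobin, with a 95% interval of -0.11 to 0.23 (limma adjusted p = 0.708). It was 0.14 ± 0.080 between both agents and vehicle (limma adjusted p = 0.191) and 0.09 ± 0.080 between myoglobin and vehicle (limma adjusted p = 0.522). A processed pseudogene, Ptges3-ps, has its own row at 7 to 18 normalised reads, and how reads that match both were assigned is not given in the sources used here.

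The high co-chaperone values went along with the library that stood apart. In it, genes with many reads per exonic base were higher than in replicates 1 to 3 of the same group. Fkbp4 was 0.48 higher there on the log2 scale, against a median of 0.45 over the 121 genes within 1.25-fold of its read density. Ptges3 was 0.38 higher, against 0.13 over 2197 genes, and lay above 94.4% of them. Nr3c1 stood at -0.06 against a median of -0.06 over 2056 genes, and Nr3c2 at 0.01 against -0.18 over 1090 genes. Hsd11b2 had 4 normalised reads in that library, and without it the log2 change of Hsd11b2 with both agents against vehicle was -4.29. Without that library the log2 difference of Fkbp4 between both agents and myoglobin was 0.08 ± 0.036 (SE, limma adjusted p = 0.227) and that of Ptges3 -0.04 (adjusted p = 0.741). Nr3c1 without it still fell with both agents against myoglobin, by 0.23 on the log2 scale (limma adjusted p = 0.0150).

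**Figure D4:**
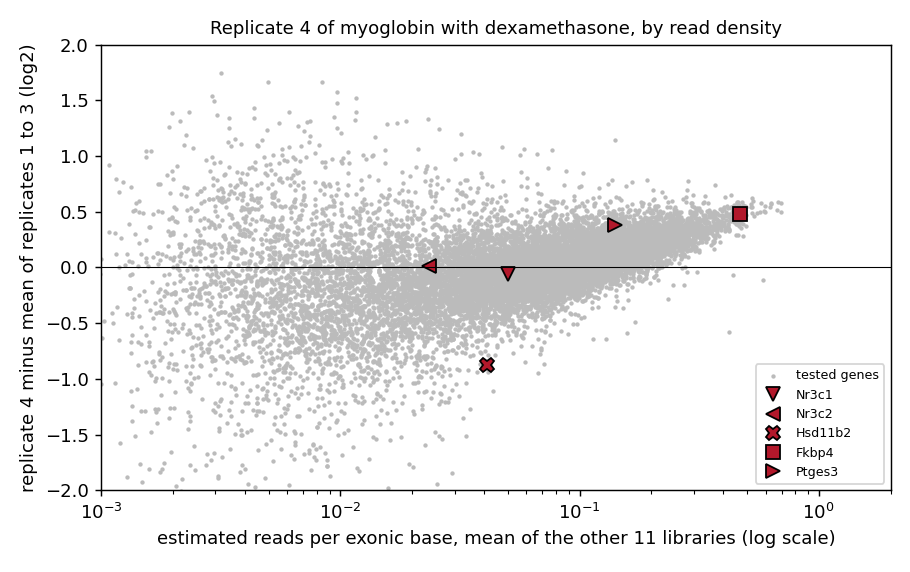
Replicate 4 of myoglobin with dexamethasone minus the mean of replicates 1 to 3 (log2, vertical axis) against estimated reads per exonic base in the other 11 libraries (log scale), for 14471 tested genes in grey, with 80 more outside the axes, and for the 5 genes in red. The grey cloud bends upward at high read density, and Fkbp4, at 0.48, lies within it.

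Fkbp5, the immunophilin gene that counteracts Fkbp4, rose with dexamethasone. Its normalised read counts were 493, 548, 595 and 579 with myoglobin and dexamethasone, 238, 237, 230 and 265 with myoglobin, and 202, 227, 229 and 251 with vehicle. All 4 libraries with dexamethasone lay above all 8 others, with a log2 change of 1.19 ± 0.073 against myoglobin (SE, limma adjusted p = 1.53e-07). The log2 ratio of Fkbp5 to Fkbp4 averaged -1.37 ± 0.26 with both agents, -2.36 ± 0.13 with myoglobin and -2.47 ± 0.13 with vehicle (SD, n = 4 each). Both agents differed from myoglobin by 0.99 (exact two-sided permutation p = 0.0286, adjusted over 6 tests p = 0.0429) and from vehicle by 1.10 with the same exact p-values. As for the receptor ratio, the adjusted p adds nothing to the lack of overlap. Between myoglobin and vehicle the difference was 0.11 (exact permutation p = 0.314, adjusted p = 0.377). The read density of Fkbp4 enters these ratios, and the lowest ratio with both agents, -1.66, is that of the library that stood apart.

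The rest of the HSP90 complex was set beside the share of all tested genes that passed in either direction. That share was 6.98% with both agents against myoglobin, 18.3% with myoglobin against vehicle and 28.6% with both agents against vehicle. Of 17 chaperone complex genes, all tested, 1 rose and 0 fell with both agents against myoglobin, the 1 being Fkbp5, where 5 passed at an unadjusted p under 0.05. Myoglobin against vehicle gave 0 rises and 0 falls by limma, and 0 passed unadjusted, although 1 rose when replicate 4 of myoglobin with dexamethasone was left out of the shared fit. Under both agents 3 rose against vehicle, Fkbp5, Hspa4 (0.19 ± 0.060, limma adjusted p = 0.0292) and the co-chaperone gene Dnaja2 (0.19 ± 0.060, adjusted p = 0.0315), and 0 fell. That count was 5 without replicate 1 of myoglobin with dexamethasone, 6 without its replicate 3, and 1 without vehicle replicate 2 or 3. The Dnaja2 call was also lost without vehicle replicate 1 or 4. Without replicate 4 of myoglobin with dexamethasone the log2 changes were smaller, 0.11 for Hspa4 and 0.11 for Dnaja2 (limma adjusted p = 0.00936 and 0.0176). The HSP90 genes themselves did not pass: with both agents against myoglobin the log2 difference was 0.07 ± 0.078 for Hsp90aa1 and 0.21 ± 0.10 for Hsp90ab1 (SE, limma adjusted p = 0.615 and 0.223). Against vehicle the values were 0.15 ± 0.078 and 0.26 ± 0.10 (adjusted p = 0.157 and 0.0599). Replicate 4 of myoglobin with dexamethasone had the highest Hsp90aa1 and Hsp90ab1 values, 788 and 2874 normalised reads. Without that library the differences from myoglobin were -0.026 and 0.070 (limma adjusted p = 0.795 and 0.276), and those from vehicle 0.052 and 0.12 (adjusted p = 0.442 and 0.0222). All of these were smaller or of the other sign, yet Hsp90ab1 then passed against vehicle.

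Heat shock genes, many of which are induced by misfolded protein, gave 0 calls with both agents against myoglobin among 12 tested by limma, where 2 passed unadjusted. With myoglobin against vehicle 2 rose, the HSP70 partner genes Hsph1 (0.22 ± 0.051) and Bag3 (0.21 ± 0.057), with limma adjusted p of 0.00647 and 0.0144, and 0 fell. This count was 5 without replicate 4 of myoglobin with dexamethasone and 1 without myoglobin replicate 2 or vehicle replicate 1, in which Bag3 was lost. Against vehicle, 4 rose and 0 fell with both agents. Over all tested genes 6.98%, 18.3% and 28.6% passed in either direction in these comparisons, in the same order.

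Most of the listed genes downstream of the receptors rose with dexamethasone. Of 14 receptor target genes, all tested, 9 rose and 0 fell with both agents against myoglobin, and the list median log2 change was 0.33, beside 0.01 over all tested genes. Over all tested genes 6.98% passed in either direction here, 28.6% with both agents against vehicle and 18.3% with myoglobin against vehicle. The list was written with earlier results of these data known, so its counts describe the listed genes only. Without replicate 3 of myoglobin with dexamethasone, or without myoglobin replicate 1, the counts were 9 and 1. Scnn1a, the channel subunit gene of the aldosterone-responsive nephron, rose by 2.05 ± 0.097 on the log2 scale (SE, limma adjusted p = 4.76e-09), while Scnn1b and Scnn1g were among the principal cell markers that fell with myoglobin. Counted among the 9, and among the 8 that rose with both agents against vehicle, is the transcriptional repressor gene Zbtb16. It had 26 to 44 normalised reads with both agents and 0 to 1 in the other 8 libraries. It entered the fit only through the group where it is high, so its test adds nothing to these values. Against vehicle, 8 rose and 0 fell with both agents, with 7 and 1 when replicate 3 or replicate 4 of myoglobin with dexamethasone was left out, and 9 and 1 without myoglobin replicate 1. With myoglobin against vehicle 2 rose, Lcn2 (0.44 ± 0.086) and Tsc22d3 (0.36 ± 0.072), with limma adjusted p of 0.00193 and 0.00229, and 5 fell. The falls numbered 1 to 3 without any 1 of the 11 libraries other than replicate 4 of myoglobin with dexamethasone, and Cnksr3 (-0.22 ± 0.044, limma adjusted p = 0.00193) had the smallest p of them.

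**Figure D5:**
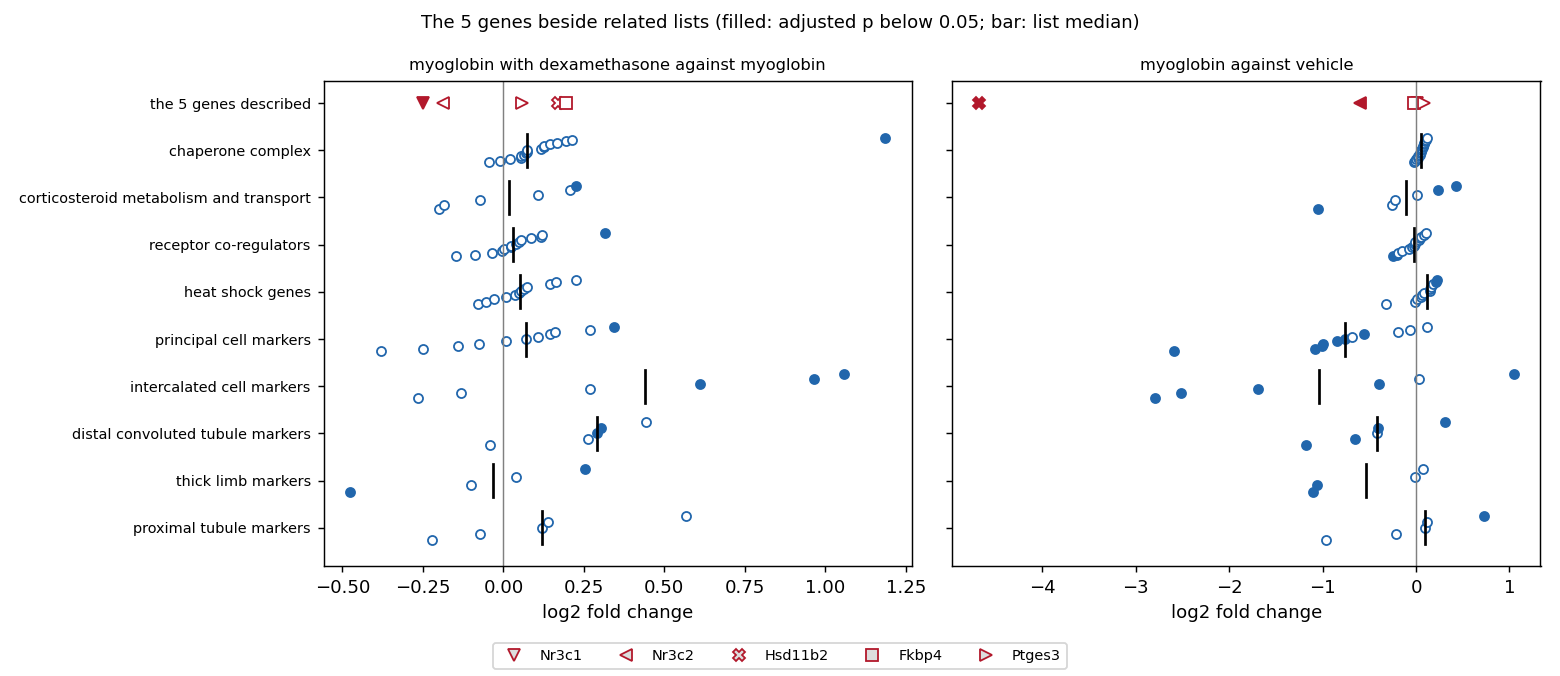
log2 fold change of the 5 genes (red) and of tested genes in related lists (blue) with myoglobin and dexamethasone against myoglobin (left) and with myoglobin against vehicle (right), filled where the limma adjusted p is below 0.05, with list medians as bars. Hsd11b2, at -4.68 on the right, lies below every listed gene, and the filled chaperone complex point on the left is Fkbp5.

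Co-regulators of the receptors were set beside the share of all tested genes that passed in either direction. It was 18.3% with myoglobin against vehicle, 28.6% with both agents against vehicle and 6.98% with both agents against myoglobin. Of 14 co-regulator genes 0 rose and 2 fell with myoglobin against vehicle, among them the coactivator gene Ncoa3 (-0.20 ± 0.035, limma adjusted p = 0.000662). The counts were 2 and 4 without replicate 4 of myoglobin with dexamethasone. Ncoa3 also fell with both agents against vehicle (-0.14 ± 0.035, limma adjusted p = 0.00597), where 0 rose and 2 fell, and 2 rose and 2 fell without that library. Against myoglobin, 1 rose with both agents, the coactivator gene Ppargc1a (0.31 ± 0.081, limma adjusted p = 0.0287), and 0 fell. That call was lost without replicate 1, 2 or 3 of myoglobin with dexamethasone or replicate 2, 3 or 4 of myoglobin, and 2 rose and 1 fell without replicate 4 of myoglobin with dexamethasone. Of the other steroid receptors 3 of 6 were tested. Among them the estrogen receptor gene Esr1 fell with myoglobin against vehicle (-0.41 ± 0.099, limma adjusted p = 0.00804). With dexamethasone 0 of the 3 passed by limma against myoglobin or vehicle, where 1 and 0 passed unadjusted, and 1 rose against myoglobin without myoglobin replicate 1.

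For each of the 5 genes, the 3 genes with the most similar pattern over the 12 libraries were taken by Pearson correlation of log2(value + 1), as a description over libraries that share groups and depth. Nearest to Nr3c1 were the kinase gene Rps6ka6 (r = 0.961), the telomere protein gene Tinf2 (r = 0.961) and the chromatin protein gene Smchd1 (r = 0.950). Nearest to Nr3c2 were the growth factor gene Pdgfb (r = 0.962), Tcte2 (r = 0.950) and Arhgap29 (r = 0.946). Nearest to Hsd11b2 were Scnn1b (r = 0.982), Sned1 (r = 0.981) and the collagen IV chain gene Col4a4 (r = 0.981), the first of them a principal cell marker. Nearest to Fkbp4 were Itm2c (r = 0.997), the translation factor gene Eef2 (r = 0.992) and the surface glycoprotein gene Cd24a (r = 0.990). These 3 were 0.49, 0.58 and 0.45 higher on the log2 scale in replicate 4 of myoglobin with dexamethasone than in replicates 1 to 3, as Fkbp4 was. Nearest to Ptges3 were Ubap2l (r = 0.960), the actin-binding protein gene Tmsb10 (r = 0.956) and the RNA-binding protein gene Fxr1 (r = 0.954). Among the 5 genes themselves, Nr3c2 and Hsd11b2 had r = 0.879 over the 12 libraries and Fkbp4 and Ptges3 had r = 0.802.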

How the data were processed

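RNA from 12 libraries was measured by stranded messenger RNA sequencing. The deposited values are treated as a score: whole numbers per gene that the authors scaled by library, since each column steps at the spacing of a size factor, and they are not raw counts. Count tests were therefore not used. Tools listed in the submitters' processing notes, with no role or order, are featureCounts 2.0.3, DESeq2 1.36.0, Trimmomatic 0.39, Picard 2.27.4 and STAR 2.7.10a, and the build is mm10. Exonic lengths are from GENCODE M21, in which 98.9% of genes have the table's coordinates.

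Groups came from the titles. limma 3.58.1 (R 4.3.3) was fitted to log2(value + 1) over all 12 libraries without a replicate block, for genes with at least 10 in at least 4 libraries, and was tested on simulated data. Ratios within a library were tested by exact permutation over 70 relabellings (scipy 1.17.1). Estimated reads are a value multiplied by its library's step factor. Alternatives were the pseudocount, filter, scaling, quality weights, fits to 2 groups, the block, and left-out libraries.

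The members and the 15 context lists were chosen with earlier results of these data known. Named were the 5 members, Fkbp5, Hsd11b1, H6pd, both HSP90 genes, Abcb1a and Abcb1b whatever their result, at most the 3 passing genes with the smallest p of a list and comparison, and 3 most similar genes per member. Chosen after the values were seen were the overlapping transcript, the pseudogene, and the naming of Aqp2, Aqp3 and the rising markers Slc26a4 and Calb1. The promoter windows are those of RefSeq, and no window was used for Nr3c1 and Hsd11b2. Some genes of the lists are not reported here.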

Additional observations from a re-analysis of the deposited data

Results flagged for a closer look

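In 21 sets of 4 libraries (each gene and each ratio in each group), 2 values stood far from the other 3, where chance flags about 1 in 20 such sets. Nr3c2 in vehicle replicate 2 was 247 normalised reads, against 169 to 178 in the other vehicle libraries, a gap of 0.885 of the group's range. The log2 ratio of Nr3c1 to Nr3c2 in the same library was 0.68, against 1.12 to 1.16 in the other 3, a gap of 0.927 of the range. Both come from 1 measurement of Nr3c2 and are not independent of each other. Without that library Nr3c2 still fell, with a log2 change of -0.66 with myoglobin and dexamethasone against vehicle and -0.47 with myoglobin against vehicle (limma adjusted p = 4.4e-05 and 0.000899).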

How the results depend on the processing

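Of 573 values under alternative settings, 528 were marked as the same. For genes and ratios that means the same direction and side of the threshold. For numbers of genes called it means a count within a set factor of the reported one. Genes called with myoglobin and dexamethasone against myoglobin numbered 1788 with the replicate block, 639 with only the 2 groups fitted and 1625 with sample quality weights, and 314 to 1279 with libraries left out, including 549 without myoglobin replicate 4 and 616 without myoglobin replicate 2, beside 1016 as reported. With both agents against vehicle they numbered 4161, and 2404 to 4226 with libraries left out. With myoglobin against vehicle they numbered 2669, with 4314 under quality weights and 1393 to 3789 with libraries left out.

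Nr3c1 with myoglobin against vehicle was -0.012 with scaling by library totals, -0.022 with upper-quartile scaling and -0.023 with quantile normalization, and -0.037 to 0.029 with libraries left out. With both agents against myoglobin, Nr3c1 was -0.29 to -0.21 with libraries left out, Hsd11b2 -0.11 to 0.40, and Ptges3 -0.045 to 0.12 and -0.019 with quality weights. The cause of these shifts was not tested. Hsd11b2 could not be fitted without all libraries of number 2, since it then failed the filter.

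Same-numbered libraries correlated at -0.02 to 0.46 in their deviations from the group means, against a median of -0.05 for other pairs, and 9 of 12 libraries were closest to their own number. That is a hint of pairing from the data, not the design, and 9 of the 12 same-numbered pairs were over 0.1. The fit without the block was kept because the labels do not say that a number is a mouse. It ignores any such pairing. The replicate block changed no call of the 5 genes in limma. For the ratios it left 0.60 and 0.54 (Nr3c1 to Nr3c2) and 0.99 and 1.10 (Fkbp5 to Fkbp4) at an exact permutation adjusted p of 0.188, since 4 pairs cannot pass. With libraries left out these ratio differences ranged over 0.49 to 0.68, 0.43 to 0.59, 0.85 to 1.14 and 1.01 to 1.25, and with 3 against 3 none can pass the exact test. Low counts limit Hsd11b2 in both myoglobin groups.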
